A study of Mus musculus with 51 samples.

Results

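Marker genes of the ventral tegmental type of dopamine neuron were followed in mouse midbrain neurons with and without a working Polycomb repressive complex. The 8 genes were taken by name, as the rows for Otx2, Calb1, Calb2, Lpl, Crhr1, Tacr3, Grp and Neurod6 among the 24564 genes of the deposited count table, and all 8 had a row. Adult midbrain neurons had been sorted by fluorescence (FACS), and their RNA was read with Smart-seq2, a full-length method for small amounts of RNA. Eed is a core subunit of Polycomb repressive complex 2 (PRC2), which methylates histone H3 at lysine 27 and keeps developmental genes silent. The design text poses the comparison as dopaminergic and serotonergic neurons that have or lack functional PRC2.

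Dopaminergic (mDA) neurons came from a strain labelled DatCreEed and serotonergic (5HT) neurons from a strain labelled SertCreEed. Animals labelled mut and animals labelled wt carry the same strain name, so the labels do not say whether wt animals carry Cre. By their names the lines use regulatory sequence of the dopamine transporter and the serotonin transporter genes to drive Cre. At 8 months there were 8 mDA mutants, 8 mDA wt, 4 5HT mutants and 4 5HT wt animals. At 4 months there were 10 mDA mutants, 9 mDA wt, 4 5HT mutants and 4 5HT wt animals. Each of the 51 libraries came from 1 animal with its own label, and both sexes were present in every group.

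Dopamine neurons of the midbrain fall into types that differ in position, projection and vulnerability. Neurons of the ventral tegmental area project to the limbic forebrain and cortex and serve reward and motivation, whereas those of the substantia nigra pars compacta project to the dorsal striatum and are the more vulnerable type in Parkinson's disease. Ventral tegmental neurons are known for the transcription factors Otx2 and Neurod6, the calcium-binding proteins calbindin (Calb1) and calretinin (Calb2), the peptide Grp, the peptide receptors Crhr1 and Tacr3, and lipoprotein lipase (Lpl). None of these genes marks every ventral tegmental neuron, and several also mark other neurons of the midbrain.

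Total counts per library ran from 1644460 to 12250492, so that 3 counts stood for 0.245 to 1.82 CPM, the count per 1000000 counts after TMM scaling. Smart-seq2 reads carry no molecular tags here, so these floors cover counting error alone. Sorted mDA libraries held serotonin identity genes at a summed 14.1 to 106 CPM, against 1205 to 7722 CPM in 5HT libraries. The whole-gene level of Eed was 9.01 to 39.4 CPM in mDA mutants and 6.95 to 25 CPM in mDA wt. Eed reads were summed over all exons, deleted or not, so the level of Eed does not check the genotype labels. In sorted pools, fewer cells of a type and less RNA per cell cannot be told apart.

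Crhr1, Otx2 and Tacr3 are shown by the sequence around an annotated start, because Crhr1 was lower in mDA mutants at 8 months, Otx2 was counted in some 5HT mutants and Tacr3 is the other peptide receptor among the markers. PRC2 is known to gather at promoters rich in CG dinucleotides, and CG is in capitals. Sequences are from RefSeq for GRCm38.p6, 5′ to 3′ on the gene's strand, 250 bases before the start and 50 from it, and 4 of the 8 genes matched that table.
Crhr1 (plus strand, chr11:104132531-104132830): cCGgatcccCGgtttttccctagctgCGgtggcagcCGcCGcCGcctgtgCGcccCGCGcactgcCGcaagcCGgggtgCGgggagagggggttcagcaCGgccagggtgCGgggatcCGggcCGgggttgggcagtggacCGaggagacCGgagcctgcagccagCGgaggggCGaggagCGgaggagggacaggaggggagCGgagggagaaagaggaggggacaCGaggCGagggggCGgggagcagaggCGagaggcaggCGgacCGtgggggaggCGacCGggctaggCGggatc
Otx2 (minus strand, chr14:48665060-48665359): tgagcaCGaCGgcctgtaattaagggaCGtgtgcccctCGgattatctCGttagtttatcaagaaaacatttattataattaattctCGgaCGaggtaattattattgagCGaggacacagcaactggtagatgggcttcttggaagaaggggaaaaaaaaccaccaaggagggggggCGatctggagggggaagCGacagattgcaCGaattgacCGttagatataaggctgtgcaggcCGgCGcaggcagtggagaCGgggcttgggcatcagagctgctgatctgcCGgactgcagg
Tacr3 (plus strand, chr3:134828757-134829056): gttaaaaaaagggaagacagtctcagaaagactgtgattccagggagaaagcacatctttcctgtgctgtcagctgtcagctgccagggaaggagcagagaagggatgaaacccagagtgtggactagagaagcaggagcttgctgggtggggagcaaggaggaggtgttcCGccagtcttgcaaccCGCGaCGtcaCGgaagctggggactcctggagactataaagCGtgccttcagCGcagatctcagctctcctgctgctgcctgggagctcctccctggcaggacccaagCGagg
The Crhr1 window held 31 CG dinucleotides, a number reached by 10.6% of the 32851 promoters of the same length, whose median was 7. This window lies inside the Crhr1 span given below, so it does not cover the first base of that span. The Otx2 window shown held 16, the most of its 4 annotated starts and a number reached by 33.0% of promoters, and the Tacr3 window held 8, reached by 48.6%. Neurod6 had 3 in its window, reached by 76.7%. These counts describe the windows and say nothing of PRC2 in these neurons.

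The genes lie apart in the genome. In the RefSeq annotation of GRCm38.p6, Otx2 spans chr14:48656781-48667644, Neurod6 chr6:55677818-55681263, Calb1 chr4:15881264-15906709 and Calb2 chr8:110142526-110168212. Lpl spans chr8:68880555-68906932, Crhr1 chr11:104130463-104175523, Tacr3 chr3:134829007-134934581 and Grp chr18:65872751-65886599. Exons of Otx2 overlap those of the opposite-strand gene Otx2os1, and whether counting used strand is not stated in the labels, so Otx2 reads are uncertain to that extent, as they are through the overlapping same-strand gene Gm49154, which has no row in the table. Otx2os1 had at most 12 counts in any mDA library and 5 in any 5HT library. No exon of another annotated gene overlapped those of the remaining 7.

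In wt animals all 8 genes were higher in mDA neurons, with 5HT neurons as the comparison. In an edgeR quasi-likelihood fit of the 25 wt libraries, 8 of 8 were called at an adjusted p under 0.05, where 21.7% of the 16178 genes tested were called and 11.3% were called higher. Otx2 had the largest difference, with a log2 fold change of 6.15 ± 0.59 (SE; edgeR, adjusted p = 3.25e-10), a size that depends on the prior count of the fit because the 8 wt 5HT libraries held 8 Otx2 counts in all (7 at 8 months and 1 at 4 months). The other transcription factor, Neurod6, was higher by 4.48 ± 0.64 on the log2 scale. Grp, the gastrin-releasing peptide, was higher by 5.16 ± 0.54, and its level was 10.8 to 36.5 CPM in wt mDA libraries at 8 months, against 0.156 to 4.36 CPM in wt 5HT. The receptors Crhr1, for corticotropin-releasing hormone, and Tacr3, for neurokinin B, were higher by 4.54 ± 0.29 and 4.13 ± 0.32. Lpl, which releases fatty acids from triglycerides, was higher by 4.27 ± 0.50. The calcium-binding proteins stood closer between the cell types, Calb1 by 1.75 ± 0.16 and Calb2 by 0.94 ± 0.20. Calb2 was the gene whose wt groups overlapped at both ages, with 67.8 to 177 CPM in mDA and 54.2 to 83.1 CPM in 5HT at 8 months. Neurod6 overlapped at 8 months only, through 1 wt mDA library at 1.53 CPM. Among all genes tested, 6% were higher in wt mDA without overlap at 8 months, where 6 of the 8 markers were, and 4.05% at 4 months, where 7 were. Leaving out 1 of the 8 wt 5HT libraries kept all 8 calls. Otx2 moved to 7.27 on the log2 scale without S385 and to 6.95 without S373. Neurod6 moved to 6.13 without S385 and to 6.35 without S373. Grp moved to 6.58 without S374, and Lpl to 5.52 without S381 and 5.04 without S369. The median over the 8 was 4.37, against 0.03 over all genes tested, and the genes were chosen as markers of dopamine neurons. Otx2, Lpl, Grp and Neurod6 did not pass the filter on low counts in 5HT libraries alone and passed here through the mDA groups. The calls and the median are thus a description and no test of the markers.

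**Figure D1:**
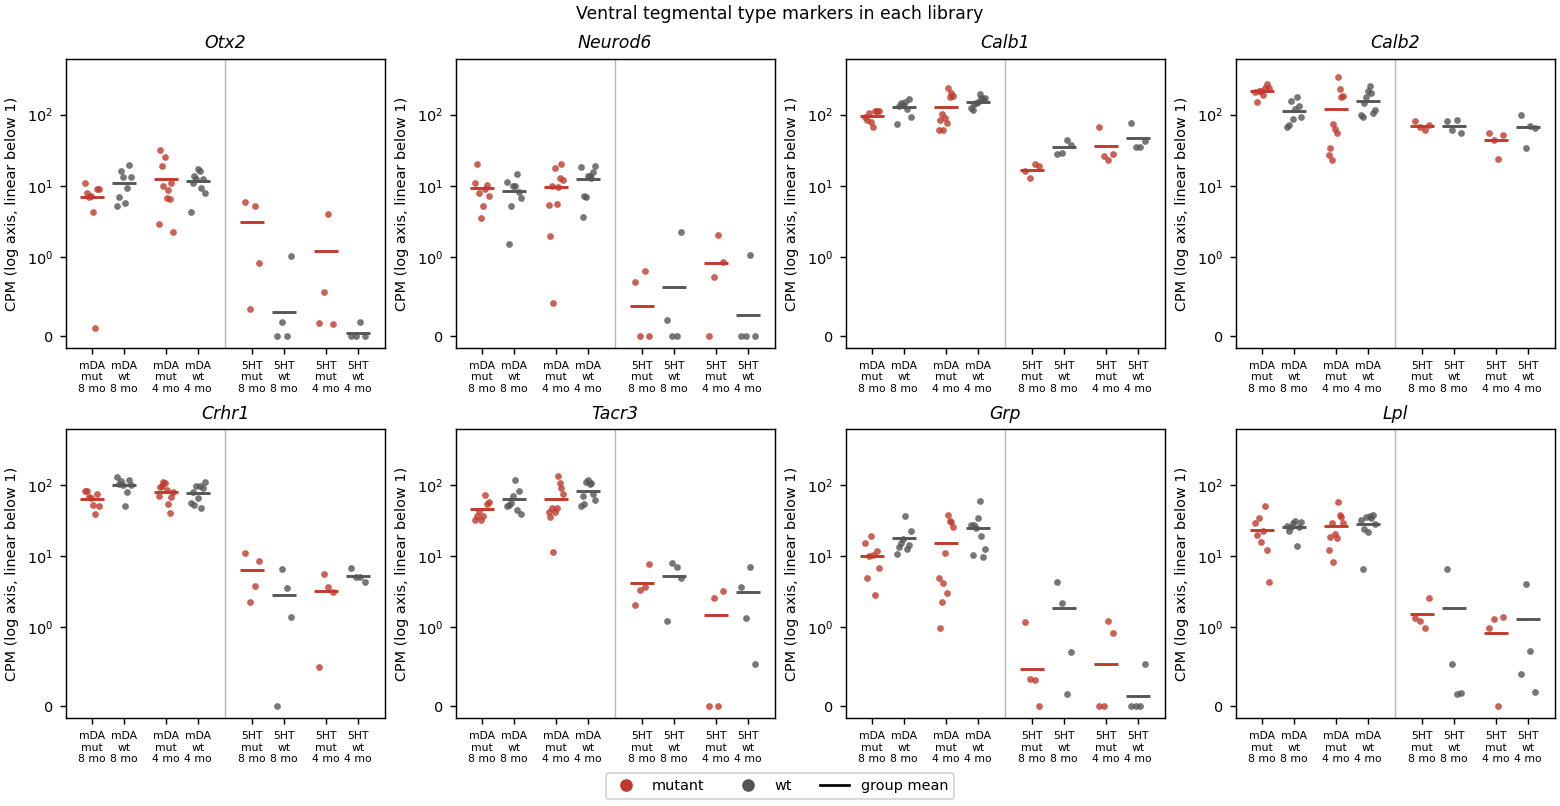
Level of each gene in each of the 51 libraries, in CPM on a log axis that is linear below 1, with mutants in red, wt in grey and a bar at the group mean. Group means of every gene are lower in 5HT than in mDA groups. Mutant mDA and mutant 5HT libraries overlap for Otx2 at both ages and for Neurod6, Grp, Calb1 and Calb2 at 4 months. In 1 mDA mutant at 8 months Otx2 is at 0.104 CPM.

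Levels can be compared between genes only per length. Over the longest transcript matched to each row, mDA mutants at 8 months had Calb2 highest at 150.0 ± 25.9 CPM per kb, then Crhr1 at 26.2 ± 6.46, Calb1 at 22.6 ± 4.19, Tacr3 at 12 ± 3.75 and Grp at 7.73 ± 4.10 (SD, n = 8). Lpl followed at 5.73 ± 3.50, Neurod6 at 4.29 ± 2.31 and Otx2 at 2.66 ± 1.3 CPM per kb. In mDA wt at 8 months Calb2 led with 78.8 ± 28.1 CPM per kb, then Crhr1 with 40.3 ± 9.95 and Calb1 with 29.8 ± 7.16 (SD, n = 8). Otx2 and Neurod6 stood lowest in both, at 4.27 ± 1.99 and 3.91 ± 1.86 CPM per kb in wt, and these neighbours did not differ beyond their spread, nor did Crhr1 and Calb1 in mutants.

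At 8 months, Calb2 was higher and Crhr1 lower in mDA mutants, and the other 6 markers were not called. In a fit of the 35 mDA libraries with sex and sequencing set as terms, 2 of 8 were called, 1 in each direction, where 4.32% of the 15425 genes tested were called, 2.44% higher and 1.88% lower. The sex term was shared by both ages, so libraries at 4 months take part in the sex correction at 8 months. No marker was called in either sex alone, where 0.395% of genes were called in females and 2.49% in males. The median log2 fold change of the 8 was -0.28, against 0.02 over all genes tested. Summed over the 8 genes the level was 469 ± 58.4 CPM in mutants and 464 ± 70.5 CPM in wt (SD, n = 8 each), a difference smaller than the spread. The sum joins a higher Calb2 with the other 7 genes, which without Calb2 summed to 255.0 ± 31.27 CPM in mutants and 351.7 ± 50.98 CPM in wt. Calb2 was set apart after its values were seen, so this split has no test.

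Calretinin, encoded by Calb2, is a calcium-binding protein of many interneurons and of part of the ventral tegmental neurons. At 8 months Calb2 had a lowest, median and highest level of 149, 214.3 and 271.5 CPM in mDA mutants, against 67.8, 105.8 and 177 CPM in mDA wt. Of the 8 mutants 7 lay above every wt library, and the lowest mutant lay within the wt range. The log2 fold change was 1.22 ± 0.28 (SE; edgeR, adjusted p = 0.00542), a 2.33-fold difference in the fit. Within sequencing set1 it was 1.22 (adjusted p = 0.00138) and within set2 it was 0.57 (adjusted p = 0.427), and set3 held wt libraries only at this age. Without the sex term it was 0.88 (adjusted p = 0.202), and without the set term 1.03 (adjusted p = 0.0668).

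Crhr1 encodes a receptor through which corticotropin-releasing hormone acts on ventral tegmental neurons. At 8 months its lowest, median and highest levels were 39.6, 66.7 and 82.5 CPM in mDA mutants, against 49.8, 102 and 128 CPM in mDA wt. The groups overlapped, and all 8 mutants lay below the wt median. The log2 fold change was -0.67 ± 0.18 (SE; edgeR, adjusted p = 0.0169). The call was lost without the wt library D147 (-0.62, adjusted p = 0.0629), without the sex term (-0.46, adjusted p = 0.315) and within set2 alone (-0.46, adjusted p = 0.781), and held within set1 alone (-0.73, adjusted p = 0.0129).

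Markers of other cell types moved in the same libraries. Of all genes tested in mDA mutants at 8 months 2.44% were called higher, the share to set beside the counts below. Summed endothelial and mural markers were 694 CPM in mutant D161, 680 CPM in D176 and 338 CPM in D170, 8.48 to 27.4 CPM in the other 5 mutants and 5.55 to 38.9 CPM in wt at 8 months. Of these 8 vascular genes 1 was called higher, Cldn5, a tight junction gene, by 4.55 ± 1.3 on the log2 scale (edgeR, adjusted p = 0.0364). Summed astrocyte markers were 532 to 2405 CPM in mutants and 391 to 746 CPM in wt, with 2 of 11 called higher. Without D161, D170 and D176 the Calb2 difference was 1.59 (adjusted p = 0.000639) and the Crhr1 difference -0.71 (adjusted p = 0.0301). Of 5 GABA neuron markers 4 were called higher in mutants at 8 months, with a summed 844 ± 111 CPM in mutants and 367.1 ± 95.4 CPM in wt. Gad1, which makes GABA, was higher by 2.76 ± 0.23 and the glycine transporter gene Slc6a5 by 6.09 ± 0.48 on the log2 scale. Of 8 serotonin identity genes 2 were called higher, Gata2 and Fev. Oligodendrocyte markers summed to 476 to 1389 CPM in mutants and 530 to 968 CPM in wt, and microglia markers to 44.7 to 106 CPM in mutants and 49.7 to 87.3 CPM in wt. The part of GABA neuron and astrocyte markers in the Calb2 and Crhr1 differences was not tested.

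The transcription factor genes were not called at 8 months. Otx2 had a lowest, median and highest level of 0.104, 7.46 and 10.9 CPM in mDA mutants and 5.12, 11.1 and 19.4 CPM in mDA wt. All 8 mutants lay below the wt median, and 2 lay below every wt library. The lowest, D170, had 1 Otx2 count among 4.22 to 10.9 CPM in the other mutants, and the same library had the highest Lpl, 50.5 CPM. The log2 fold change of Otx2 was -0.64 ± 0.50 (edgeR, adjusted p = 0.546). Neurod6 had a median of 8.41 CPM in mutants and 8.94 CPM in wt, with -0.01 ± 0.46 on the log2 scale (edgeR, adjusted p = 0.997) and an interval of -0.90 to 0.89.

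Of the other calcium-binding, peptide and enzyme genes none was called at 8 months. Calb1 had 66.5, 99.0 and 113 CPM as lowest, median and highest in mutants, against 74.6, 133 and 165 CPM in wt. All 8 mutants lay below the wt median, and the fitted difference was -0.21 ± 0.18 on the log2 scale (edgeR, adjusted p = 0.570). Tacr3 had 31.9, 40.1 and 71.3 CPM in mutants, against 39.0, 53.7 and 117 CPM in wt, with a difference of -0.46 ± 0.24 (edgeR, adjusted p = 0.301). Here 4 of 8 mutants lay below every wt library. Grp had 2.82, 10.2 and 19.4 CPM in mutants, against 10.8, 14.8 and 36.5 CPM in wt. For Grp 5 of 8 mutants lay below every wt library, while the fitted difference was -0.34 ± 0.42 (edgeR, adjusted p = 0.729). For none of the markers was it counted how many of all genes had as many mutants outside the wt range at 8 months. Lpl had 4.35, 21.1 and 50.5 CPM in mutants, against 14.1, 26.1 and 31.6 CPM in wt, so the mutants spread more widely on both sides, with a difference of 0.06 ± 0.35 (edgeR, adjusted p = 0.954).

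**Figure D2:**
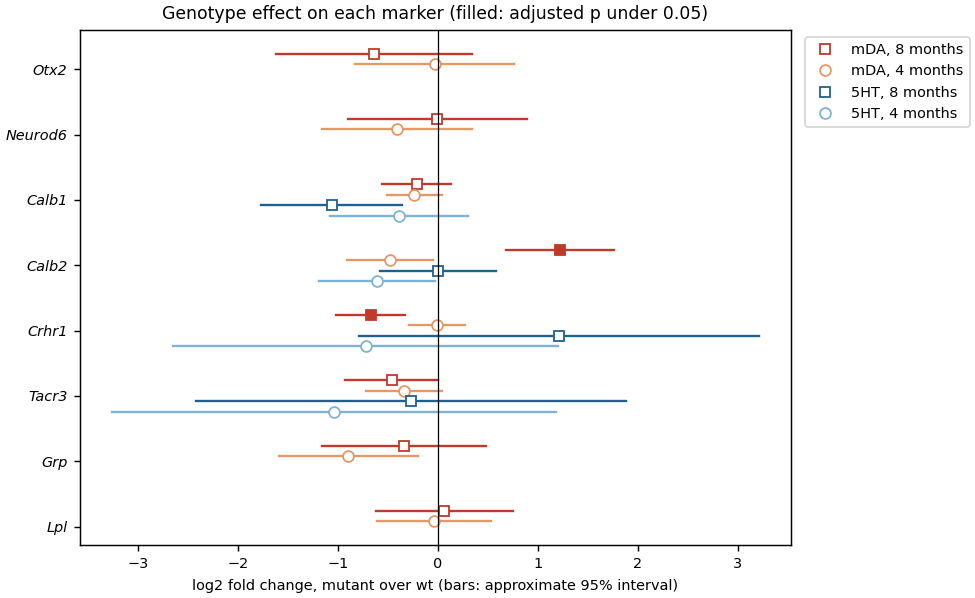
Log2 fold change of each gene, mutant over wt, with its approximate 95% interval, for mDA and, where the gene passed the filter on low counts, 5HT neurons at 8 and 4 months. Filled symbols mark an adjusted p under 0.05, which Calb2 (1.22) and Crhr1 (-0.67) reached in mDA neurons at 8 months.

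At 4 months none of the 8 markers was called between mDA mutants and mDA wt. edgeR called 0 of 8, where 1.17% of genes tested were called, and DESeq2 also called 0, where it called 2.37%. By edgeR 2 of 8 had an unadjusted p under 0.05, as did 2238 of the 15425 genes tested. All 8 fold changes were negative, with a median of -0.29, against -0.01 over all genes tested. The 2 with a low unadjusted p were Grp, at -0.90 ± 0.35 (edgeR, adjusted p = 0.204), and Calb2, at -0.48 ± 0.22 (edgeR, adjusted p = 0.298). Otx2 and Crhr1 were near 0, at -0.03 ± 0.41 and -0.01 ± 0.15, and both turned positive with another scaling, at 0.01 and 0.03.

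The mutants at 4 months fell into separate ranges by sex for 5 of 8 markers, Calb2, Calb1, Tacr3, Grp and Lpl, all lower in females. Of the 15425 genes tested, 17.6% separated the sexes of these mutants without overlap, and 12% did so with females lower. Calb2 had 23.0, 27.4, 34.2, 55.2, 63.5 and 72.6 CPM in the 6 female mDA mutants, against 106.6, 116.1, 176.3 and 216.1 CPM in the 4 female mDA wt. It had 176.02, 183.9, 225.6 and 332.3 CPM in the 4 male mutants, against 91.8, 99.1, 147.3, 200.3 and 249.5 CPM in the 5 male wt. Every female mutant thus lay below every other mDA library of that age. Within set2, the set with both sexes of both genotypes, Calb2 had 55.2 and 63.5 CPM in female mutants and 176.3 and 216.1 CPM in female wt, and 225.6 and 332.3 CPM in male mutants and 200.3 and 249.5 CPM in male wt, so that the female mutants again stood lowest.

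Calb1 had 60.6 to 100.3 CPM in female mutants and 145 to 168 CPM in female wt, and 173.4 to 236.5 CPM in male mutants and 115 to 194 CPM in male wt. Tacr3 had 11.3 to 47.5 CPM in female mutants and 61.6 to 116 CPM in female wt, and 75.5 to 134 CPM in male mutants and 51.2 to 108 CPM in male wt. Grp had 0.992 to 11.1 CPM in female mutants and 9.57 to 33.9 CPM in female wt, and 25.5 to 38.1 CPM in male mutants and 10.3 to 59.2 CPM in male wt. For Calb1 and Tacr3 the female mutants did not overlap the female wt or the male mutants, as for Calb2, where 7.08% of all genes tested lay lower than both groups without overlap. For Grp 1 female mutant reached the female wt range. Lpl had 8.39 to 28.7 CPM in female mutants and 21.5 to 37.9 CPM in female wt, and 29.1 to 57.2 CPM in male mutants and 6.68 to 36.5 CPM in male wt. Otx2 and Crhr1 did not follow this order: Crhr1 averaged 93.1 ± 15.2 CPM in female mutants and 90.2 ± 18.5 CPM in female wt (SD, n = 6 and 4), and Otx2 averaged 16.1 ± 11.4 CPM in female mutants and 12.5 ± 3.68 CPM in female wt.

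A fit with genotype by sex, added after these values were seen, gave the difference within each sex. In females at 4 months 4 of 8 markers were called lower in mutants and 0 higher, where 12.4% of genes tested were called in either direction. These were Calb2 at -1.49 ± 0.29 (edgeR, adjusted p = 0.000327), Tacr3 at -1.09 ± 0.33 (0.0209), Calb1 at -0.70 ± 0.22 (0.0260) and Grp at -1.81 ± 0.57 (0.0278). In males edgeR called 0 of 8, where 0.136% of genes were called, and 0 had an unadjusted p under 0.05. The female minus male difference was called for Calb2 alone, at -1.96 ± 0.47 (edgeR, adjusted p = 0.00725), where 7.3% of genes were called. For Tacr3 it was -1.47 ± 0.54 (adjusted p = 0.0887), for Calb1 -0.92 ± 0.36 (0.112) and for Grp -1.83 ± 0.95 (0.293).

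The female mutants at 4 months also differed in other ways. Their total counts were 1654667 to 3017630, against 4094640 to 4587312 in male mutants and at least 3500770 in wt of that age. Dopamine identity genes summed to 4739 to 8573 CPM in female mutants and 10040 to 10710 CPM in female wt, and to 10660 to 12560 CPM in male mutants and 6519 to 12290 CPM in male wt. Substantia nigra type markers summed to 703.9 to 1110 CPM in female mutants and 1072 to 1650 CPM in female wt. They summed to 1334 to 2053 CPM in male mutants and 687.8 to 1525 CPM in male wt, so male wt overlapped the female mutants. Astrocyte markers summed to 326 to 441.9 CPM in female mutants, 466.5 to 620.6 CPM in female wt and 459.3 to 730.9 CPM in male mutants. Microglia markers summed to 28.7 to 42.7 CPM in female mutants, 46.9 to 72.2 CPM in female wt and 47.3 to 79.2 CPM in male mutants. The female mutants thus lay below both groups without overlap for astrocyte and microglia markers, as for dopamine identity genes. Set1 at this age held female mutants and male wt alone, so sex and genotype cannot be told apart within it. The part of depth, dopamine identity and glial markers in the sex difference was not tested.

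**Figure D3:**
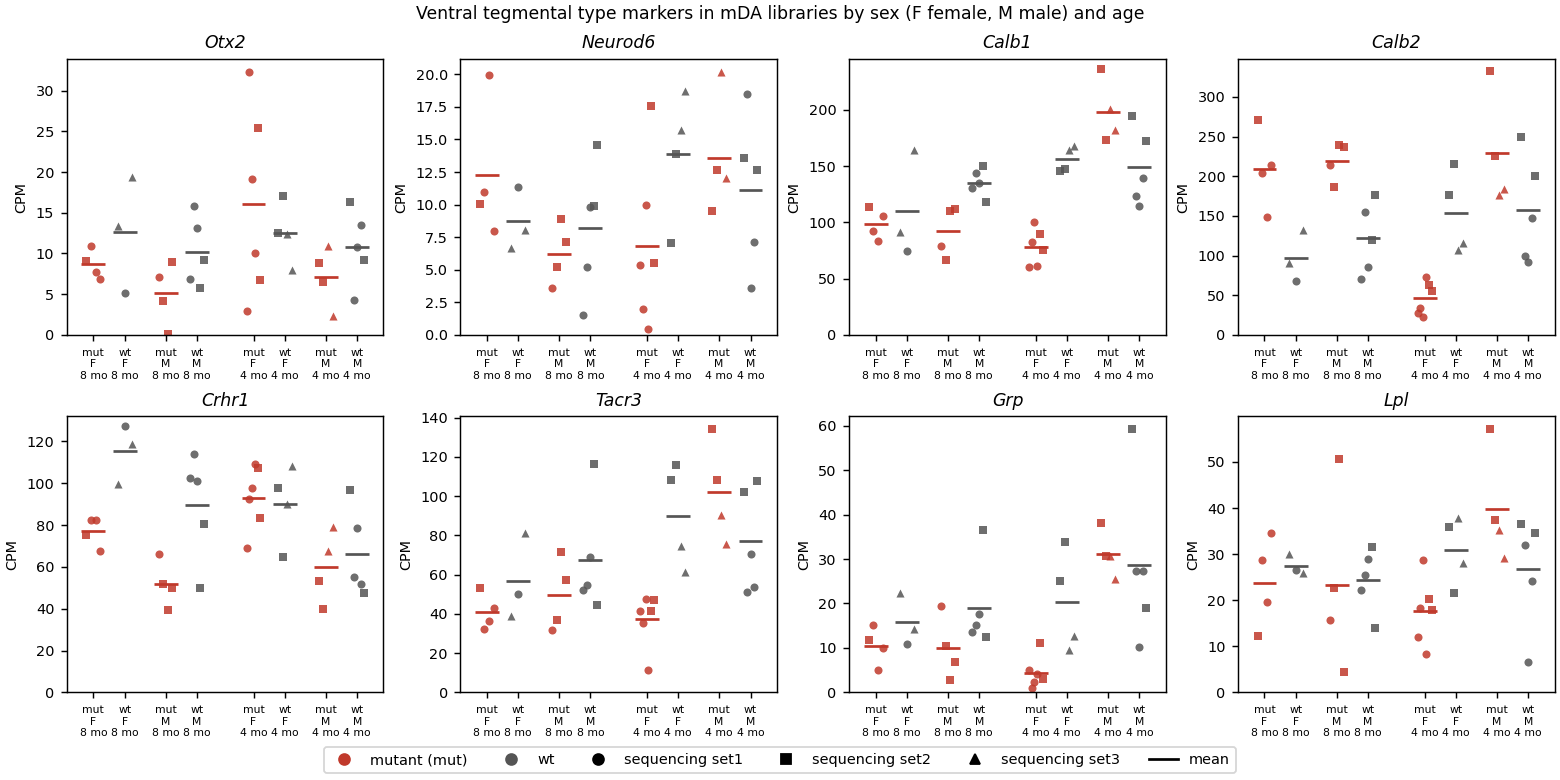
Level of each gene in CPM in the 35 mDA libraries, split by age, sex and genotype, with symbols for the sequencing set and a bar at the mean. At 4 months the female mutants have Calb2 at 23.0 to 72.6 CPM and the male mutants at 176.02 to 332.3 CPM, and at 8 months the mutants of both sexes lie between 149 and 271.5 CPM.

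At 8 months no marker was called between the sexes in its genotype difference. The female minus male difference was called for 0 of 8 markers by edgeR, where 0% of genes were called, and 1 of 8 had an unadjusted p under 0.05, Calb1 at 0.93 ± 0.34 (adjusted p = 0.878). How many of all genes had such an unadjusted p was not counted. Calb2 was 1.48 ± 0.41 higher in female mutants (edgeR, adjusted p = 0.136) and 0.74 ± 0.22 higher in male mutants (adjusted p = 0.0632). Neither sex alone passed for Calb2, in females where 0.395% of genes were called and in males where 2.49% were.

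In the fit of all mDA libraries the genotype difference for Calb2 differed between the ages. The log2 fold change at 8 months minus that at 4 months was 1.70 ± 0.35 (edgeR, adjusted p = 0.00402), and Calb2 was the 1 of 8 called, where 6.11% of genes tested were called and 3.76% were higher. The ages use different animals, so this is a difference between groups and not a course within animals. The Calb2 call was lost without the sex term and without the set term. In the fit by sex, Calb2 had -1.49 ± 0.29 at 4 months and 1.48 ± 0.41 at 8 months in females. In males it had 0.47 ± 0.28 and 0.74 ± 0.22. Whether the difference between ages depends on sex was not tested. Crhr1 had -0.66 ± 0.22 (edgeR, adjusted p = 0.0661), past the threshold with RLE scaling (-0.71, adjusted p = 0.0474) and with DESeq2 (-0.71, adjusted p = 0.0287). For Otx2 the value was -0.61 ± 0.63 (edgeR, adjusted p = 0.640). Among mutants, Calb2 was 214.5 ± 37.0 CPM at 8 months and 119 ± 105 CPM at 4 months (SD, n = 8 and 10). That difference of 1.23 ± 0.28 on the log2 scale was called (edgeR, adjusted p = 0.00530), 1 of 8 where 7.37% of genes were called and 4.73% were higher. In wt, edgeR called 0 of 8 between the ages, where 0% of genes were called. At an unadjusted p under 0.05 there was 1, Crhr1 at 0.35 ± 0.16 (edgeR, adjusted p = 0.594), and 1204 of the 15425 genes tested. DESeq2 was not run on that comparison. Without the 4 mutants of set1 at 4 months, all female, the Calb2 difference between ages was 1.45 in the genotype effect (adjusted p = 0.0726) and 0.67 among mutants (adjusted p = 0.250).

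Among mutants the markers were again higher in mDA than in 5HT neurons, Otx2 at 8 months excepted. Of the 8, 7 were called higher in mutant mDA than in mutant 5HT neurons at 8 months, where 5.45% of genes were called and 3.4% were higher. At 4 months 8 were, where 9.35% were called and 5.19% were higher. The 8 were chosen as markers of dopamine neurons. Otx2, Lpl, Grp and Neurod6 did not pass the filter on low counts in 5HT libraries alone and passed here through the mDA groups. These counts of calls are thus a description and no test of the markers. Otx2 was the exception, at 1.02 ± 0.77 (edgeR, adjusted p = 0.573) at 8 months, and at 2.14 (adjusted p = 0.225) without the 5HT library S442. Calb2 at 8 months, at 1.62 (edgeR, adjusted p = 0.0151), lost the call without S442 (adjusted p = 0.0812), without S443 (adjusted p = 0.102) and without the sex term (adjusted p = 0.0698). Calb2 at 4 months passed narrowly, at 1.28 ± 0.41 (edgeR, adjusted p = 0.0446), and lost the call in 7 of the 8 fits that left out a 5HT library, with no filter on low counts (1.26, adjusted p = 0.103) and without the sex term (1.47, adjusted p = 0.0688).

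Otx2 was counted in 5HT mutants at 8 months. There were 2, 6, 31 and 35 Otx2 counts in the 4 mutants, 0.347, 0.920, 5.13 and 5.97 CPM, against 0, 0, 1 and 6 counts in the 4 wt, 0 to 1.04 CPM. At 4 months there were 1, 1, 3 and 10 counts in 5HT mutants, against 0, 0, 0 and 1 in 5HT wt. The groups overlapped at 8 months through 2 mutants with few counts, and the wt levels were at or near the floor of 3 counts. Otx2os1 had 7 counts over the 4 mutants at 8 months and 5 over the 4 wt. Otx2 did not pass the filter on low counts in the 5HT fit. In a fit of all 51 libraries the mDA genotype effect minus the 5HT one was -3.82 ± 1.15 at 8 months (edgeR, adjusted p = 0.258) and -3.79 ± 1.46 at 4 months (adjusted p = 0.363). With wt counts this low these values depend on the prior count of the fit. Without the wt library S385, which held 6 of the 7 wt counts, it was -6.20 with an adjusted p of 0.0434.

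For the other markers 5HT mutants and 5HT wt were not called apart. Only Calb1, Calb2, Crhr1 and Tacr3 passed the filter there. Of these 4, edgeR called 0 at 8 months, where 0.397% of genes were called, and 0 at 4 months, where 0.0128% were. DESeq2 also called 0 at both ages, where it called 1.13% of genes at 8 months and 0.307% at 4 months. At an unadjusted p under 0.05 edgeR had 1 at 8 months and 0 at 4 months, where 766 and 1001 of the 15633 genes tested were. The 1 was Calb1, with 12.8 to 20.2 CPM in 5HT mutants and 27.6 to 44.5 CPM in 5HT wt at 8 months. These ranges did not overlap, but how many of all genes separate these small groups was not counted. The Calb1 difference was -1.06 ± 0.36 on the log2 scale and was not called (edgeR, adjusted p = 0.427). Calb2 averaged 69.9 ± 8.58 CPM in mutants and 69.8 ± 14.7 CPM in wt at 8 months (SD, n = 4 each), with an interval of the log2 difference from -0.58 to 0.58. The difference between the cell types in the genotype effect was called for 0 of 8 by edgeR at 8 months, where 0.179% of genes were called. At an unadjusted p under 0.05 there were 4 of 8, and 1413 of the 18386 genes tested. At 4 months edgeR called 0 of 8, where 0.0925% were called, with 1 under 0.05 unadjusted, as were 1739 of 18386 genes. DESeq2 called 0 at 4 months, where it called 0.969% of genes. For Calb2 at 8 months the difference between the cell types was 1.28 ± 0.45 (edgeR, adjusted p = 0.424). For Crhr1 it was -1.89 ± 0.54 (edgeR, adjusted p = 0.218), and DESeq2 called it at -1.96 (adjusted p = 0.0247). Without the 5HT wt library S382 edgeR gave -2.55 (adjusted p = 0.0467).

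Other genes of the ventral tegmental type were set beside the 8. Of 9 such genes, all tested, 0 were called by edgeR in mDA mutants at 8 months and 0 at 4 months, with medians of -0.04 and -0.35 on the log2 scale. At an unadjusted p under 0.05 there were 2 at each age, where 2697 of 15425 genes were at 8 months and 2238 at 4 months. Slc17a6, the vesicular glutamate transporter of ventral tegmental neurons that co-release glutamate, had 85 to 136.1 CPM in mutants and 59.3 to 102 CPM in wt at 8 months. Its difference there was 0.59 ± 0.20 (edgeR, adjusted p = 0.0797). The difference between ages for Slc17a6, 1.05 ± 0.25, was the 1 called among the 9 (edgeR, adjusted p = 0.00992), where 6.11% of genes were called. In 5HT mutants at 8 months 1 of the 9 was called, where 0.397% of genes were called. This was the neuropeptide gene Adcyap1, higher by 1.68 ± 0.32 (edgeR, adjusted p = 0.0130).

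Most markers of the substantia nigra type were lower in the same mutants at 8 months. Of 12, all tested, 8 were called lower and 0 higher in mDA mutants at 8 months, where 1.88% of genes tested were called lower. The median of the 12 was -0.79. Igf1, a growth factor gene, was lower by a log2 fold change of -1.23 ± 0.18 (edgeR, adjusted p = 4.82e-06), Ndnf by -1.38 ± 0.25 and Anxa1 by -2.48 ± 0.49. Their summed level was 681 ± 156 CPM in mutants and 1235 ± 224 CPM in wt (SD, n = 8 each). At 4 months 2 of the 12, Kcns3 and Satb1, were called higher and 0 lower, where 1.17% of genes tested were called in either direction. Whether the 2 lists differ from each other was not tested. Of 22 dopamine neuron identity genes, 9 were called lower and 0 higher at 8 months, where 1.88% of genes tested were lower.

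**Figure D4:**
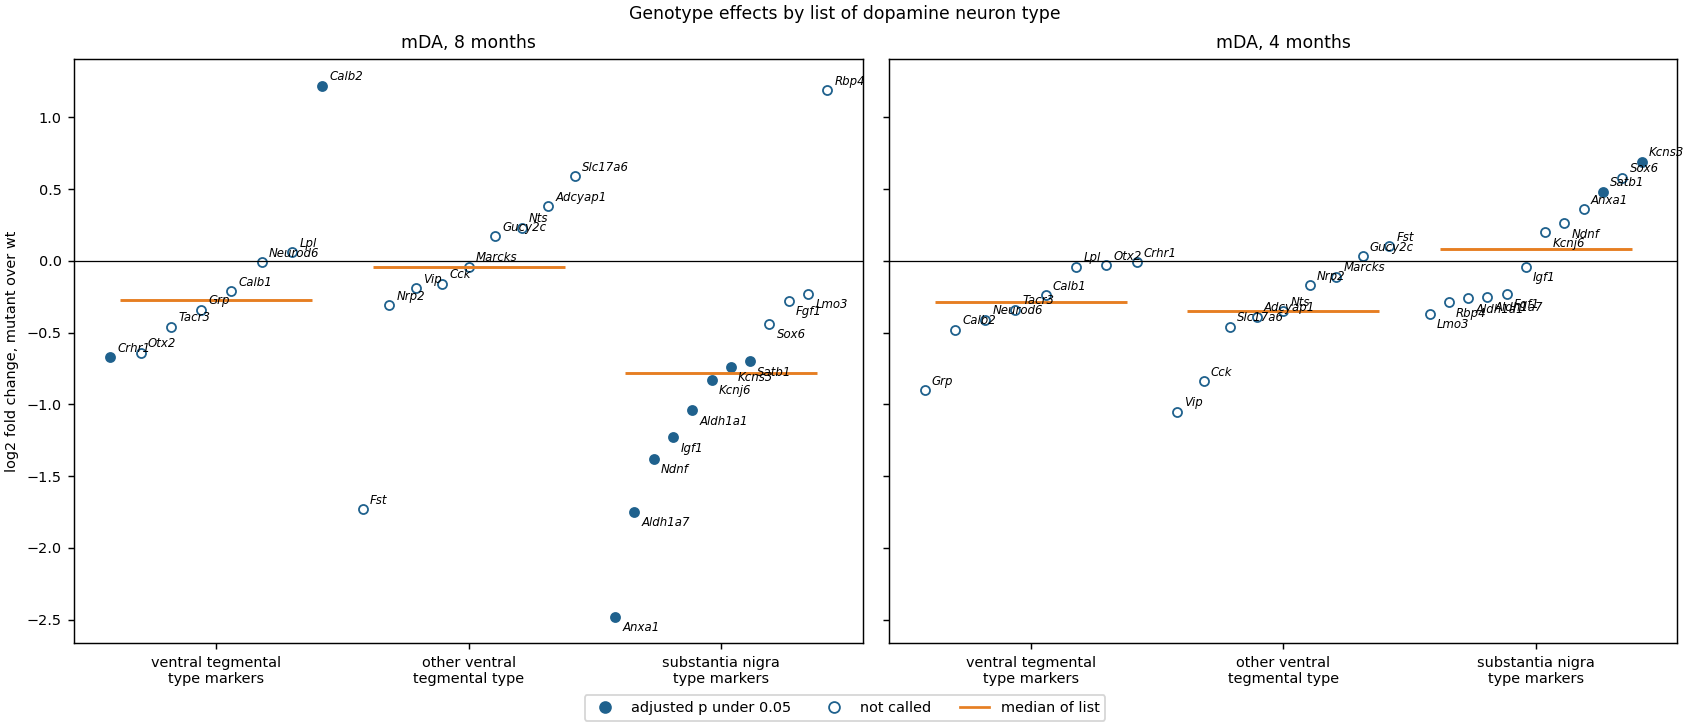
Log2 fold change, mutant over wt, of each gene of 3 lists in mDA neurons at 8 and 4 months, with called genes filled and the list median as a bar. At 8 months the medians are -0.28 for the 8 ventral tegmental type markers, -0.04 for the other 9 and -0.79 for the 12 substantia nigra type markers.

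Of ligands, receptors and partners of the 8 markers, 3 were called in mDA mutants at 8 months. Of 33 such genes 24 were tested, and at 8 months 3 were higher and 0 lower by edgeR, where 2.44% of all genes tested were higher. At 4 months 0 were called in either direction. Of these genes 1 had an unadjusted p under 0.05 there, as did 2238 of the 15425 genes tested. Neurod2, a relative of Neurod6, had 2.92 to 18.4 CPM in mutants and 0 to 2.07 CPM in wt at 8 months. These ranges did not overlap, but how many of all genes separate these groups was not counted. Neurod2 was higher by 2.83 ± 0.70 on the log2 scale (edgeR, adjusted p = 0.0116). Apoe, the gene of a lipid carrier protein that is rich in astrocytes, was higher by 1.63 ± 0.33 (edgeR, adjusted p = 0.00201). Lmf1, a chaperone that Lpl needs to mature, was higher by 0.76 ± 0.23 (edgeR, adjusted p = 0.0498). Grpr, the receptor for Grp, was at 0 to 1.03 CPM in mutants and 0.342 to 6.39 CPM in wt at 8 months, with -3.23 ± 1 on the log2 scale (edgeR, adjusted p = 0.0519). Its difference between the ages, -4.09 ± 1.28, was called (edgeR, adjusted p = 0.0464). Crh and Tac2, which encode the ligands of Crhr1 and Tacr3, were not called at 8 months, at -1.49 ± 0.92 and -0.12 ± 0.83.

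Genes with the most similar pattern over the 8 group means of log2 CPM were found by Pearson's r, a description over 8 points that share library scaling. Calb2 was nearest to Aplp1 (r = 0.990). Crhr1 was nearest to Whrn (0.999), Ankrd50 (0.994) and Pld5 (0.993), and Otx2 to Fam65b (0.995), Ebf3 (0.993) and Opn3 (0.990). Lpl was nearest to Chrna6 (0.997), which encodes an acetylcholine receptor subunit of dopamine neurons, and Tacr3 to Plcxd3 (0.999). Calb1 was nearest to Pcdh10 (0.988), Grp to Csf2rb (0.994) and Neurod6 to Zdhhc2 (0.995). All 8 markers share the step between mDA and 5HT groups, which takes part in each r.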

How the data were processed

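RNA from sorted midbrain neurons of 51 mice, 1 library a mouse, had been made into Smart-seq2 libraries and aligned with STAR 2.7.0a to GRCm38 (mm10), per the submitters' processing notes. The authors deposited raw read counts per gene, 1 column a library. Neither the counter nor whether it used strand is given in the sources used here. A reporter row (mCherry), at most 0.00294% of a library, was left out, and 0 columns were unused. Replicates are animals with separate labels. The total count of a library sets its precision, given as the floor of 3 counts.

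Counts were tested with edgeR 4.0.16 in R 4.3.3 (limma 3.58.1 underneath), after filterByExpr at a minimum count of 10, with TMM scaling, robust quasi-likelihood and Benjamini-Hochberg adjustment over all genes tested, at 0.05. The mDA fit (35 libraries) had group, sex (shared over both ages) and sequencing set within age as terms. The 5HT fit (16), the wt fit (25) and the mutant fit (26) had group and sex. All 5HT libraries carry the label set1, whereas mDA libraries carry set1, set2 or set3. Between mDA and 5HT neurons, strain differs wholly and set in part, so cell type cannot be told apart from strain there. A further fit held all 51. The fit between ages took the set label as shared over ages. The SE is the log2 fold change over the square root of F, so it and the 95% intervals are approximate. CPM are on TMM-scaled library sizes over the 51 libraries. Levels per kb use the longest matching transcript. The code was tested on simulated data.

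The 8 genes are given throughout, called or not. Of each other list up to 4 called genes with the smallest p are named, and Slc17a6, Grpr, Crh and Tac2 are given where not called as well, chosen after their values were seen. For likeness the 3 genes with the highest r were found, and not all are printed. Members and lists were chosen with earlier results of these data known. Alternatives were RLE scaling, no filter, no sex term, no set term, DESeq2 1.42.0, each set alone and leaving out libraries. The fits by sex, and those without sets of mutants, were added after seeing the data.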

Additional observations from a re-analysis of the deposited data

Results flagged for a closer look

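Calb2 differed between the sexes in its genotype effect in mDA neurons at 4 months, by -1.96 on the log2 scale for female minus male. It also differed between the ages, by 1.70 for 8 months minus 4 months. The female mutants at 4 months take part in both values.

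A library stood far above the others of its group in 11 of the 64 gene and group pairs examined. The rule takes chance to give about 1 in 20. That rate need not hold for 5HT groups of 4 with counts near 0, so no excess is read from it. Of these, 8 were in 5HT and 3 in mDA groups. In mDA neurons they were Neurod6 at 19.97 CPM in mutant D276 at 8 months, Grp at 36.5 CPM in wt D107 at 8 months and Grp at 59.2 CPM in wt C248 at 4 months. In 5HT mutants they were Calb1 at 67.4 CPM in S425 and Otx2 at 4.03 CPM in S427, both at 4 months. In 5HT wt at 8 months they were Lpl at 6.64 CPM in S381 and Neurod6 at 2.25 CPM in S385. In 5HT wt at 4 months they were Lpl in S369 (4.02 CPM, 12 counts) and Grp in S374 (0.536 CPM, 3 counts). S373 was flagged there for Neurod6 (1.06 CPM, 6 counts) and Otx2 (0.176 CPM, 1 count). That Otx2 value lies under the floor of 3 counts.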

How the results depend on the processing

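Of 363 log2 fold changes recomputed with 1 setting changed, 308 kept their direction and their side of the threshold, 17 lost a call, 9 gained one and 29 turned sign. Of 1081 with 1 library left out, 1018 did so, 10 lost a call, 9 gained one and 44 turned sign. In the comparisons with 5HT neurons only 5HT libraries were left out in turn, and none in those between ages within a genotype. No value that was called turned sign. No cause of these shifts was tested.

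Counts of markers called changed as follows, with the share of all genes called in brackets. In mDA mutants at 8 months, 2 were called (4.32%), against 0 without the sex term (2.55%), within set2 alone (0.639%) and in females (0.395%) or males alone (2.49%), and 1 without the set term (5.2%). At 4 months 0 were called (1.17%), against 2 within set1 alone (11.2%; Calb2 -1.40, adjusted p = 0.00408, and Grp -2.65, adjusted p = 0.00461, by edgeR, between female mutants and male wt) and 4 in females alone (12.4%). For the difference between the ages 1 was called (6.11%), against 2 with RLE scaling (6.03%) or DESeq2 (8.89%), and 0 without the sex term (0.998%), without the set term (3.99%) or without the 4 mutants of set1 at 4 months (0.565%). Among mutants between ages 1 was called (7.37%), against 0 without the set term (4.56%) or those 4 mutants (2.5%). For mDA minus 5HT at 8 months 0 were called (0.179%), against 1 with DESeq2 (0.55%). Leaving out 1 library gave 1 to 2 called at 8 months, 1 to 2 for the difference between ages, 0 to 1 for mDA minus 5HT at 8 months, and 7 to 8 at 4 months and 6 to 7 at 8 months in mutant mDA against 5HT.

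Uncalled values turned sign at 4 months in males alone (Calb1 0.22, Calb2 0.47, Grp 0.01, Lpl 0.41, Tacr3 0.38). Crhr1 did so with RLE scaling or DESeq2 (0.03), without the sex term (0.09), in set1 (0.70) and in females (0.42), and Otx2 likewise (0.01, 0.07, 0.86 and 0.39). Neurod6 did so in set2 (0.01) and without the 4 set1 mutants (0.11). At 8 months Calb1 (0.33) and Otx2 (0.86) turned in females, Grp in set1 (0.09), and Grp, Lpl and Neurod6 without D161, D170 and D176 (0.39, -0.11 and 0.35). Lpl turned without the sex term (-0.05), without the set term (-0.12), in set1 (-0.35) and in females (-0.16), and Neurod6 without the sex term (0.06) and the set term (0.08). Leaving out 1 library gave -0.06 to 0.12 for Crhr1, -0.19 to 0.07 for Lpl and -0.24 to 0.12 for Otx2 at 4 months, and -0.54 to 0.12 for Grp, -0.28 to 0.27 for Lpl and -0.30 to 0.23 for Neurod6 at 8 months.

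No paired analysis was possible because the groups share no replicate numbers. Genes under the floor of 3 counts in 5HT libraries set no reliable fold.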
